A study of Mus musculus with 14 samples.

Results

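Gallbladder organoids were compared with the gallbladder tissue that such cultures are grown from. The comparison used 4 of the 14 arrays of the series, 2 titled gallbladder organoid and 2 titled gallbladder tissue, and covered 19938 genes. All mice were C57BL/6. Organoids are hollow epithelial cultures, here embedded in Matrigel in AdDMEM/F12 with B27 and N2 supplements, N-acetylcysteine at 1.25 uM, nicotinamide at 10 mM, EGF, FGF10 and HGF at 50 ng/mL each, and media conditioned with R-spondin 1 and noggin. The tissue had no culture step, and the labels give no age, sex or number of animals for either group. Other arrays of the series held liver and small intestine organoids, liver and small intestine tissue, and gallbladder organoids kept without R-spondin 1, noggin and nicotinamide. The series title places the work around R-spondin 1 and noggin as factors that let resident gallbladder stem cells expand. The comparison of organoid with tissue asks how far the cultured cells resemble the organ.

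The gallbladder wall is a sheet of columnar epithelium on a connective tissue layer, with smooth muscle outside it and blood vessels, nerves and immune cells within. The epithelium concentrates bile by taking up sodium, chloride and water, secretes mucin and bicarbonate, and takes bile acids and cholesterol back from bile. Smooth muscle empties the organ when cholecystokinin is released after a meal. Organoid cultures hold epithelial cells without the wall around them. R-spondin 1 strengthens Wnt signals by keeping Wnt receptors at the cell surface, and noggin blocks BMP ligands.

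Each array gave 1 log2 signal per gene, and a difference of 1 log2 unit is a doubling of signal. Signals of different genes cannot be compared as levels, and signals of 14 or more lie near the top of the scale, where differences shrink. Differences below are organoid minus tissue, with the standard error (SE) of a limma model of all 14 arrays and a p-value adjusted by Benjamini-Hochberg over all genes. Calls were made where that p was under 0.05. In simulated data 72 of 209 such calls were false, so single calls need care. There only 50 of 19938 genes were changed at each of 0.5, 1, 2 and 3 log2 units. The false share depends on how many genes change, and 47.9% were called here, so it does not carry over as a rate. The organoid arrays were close to each other (pooled SD of a gene 0.0985) and the tissue arrays were not (0.404); the model gives each gene 1 variance for all groups, so an SE can be above the organoid spread and below the tissue spread. The labels do not say that the 2 samples of a group came from separate cultures or animals, so p-values may measure technical spread. In tissue array 1 Xist read 13.51 and the Y-linked Eif2s3y 3.72. In tissue array 2 Xist read 5.46 and Eif2s3y 10.02, while both organoid arrays had Xist at 12.06 and 11.60 and Eif2s3y at 4.004 and 3.94. By these transcripts the tissue arrays came from animals of different sex, and the organoid arrays read as tissue array 1 does. The part of sex in the differences was not tested.

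Of the 19938 genes, 9554 were called, which is 47.9%. They comprised 6514 higher in organoids (32.7%) and 3040 lower (15.2%). Each list count below has to be read beside these shares, and a list near them says little about its members. The organoid arrays lay above both tissue arrays for 50.5% of genes and below both for 25.1%. Tested against a minimum difference of 1 log2 unit, 504 genes were higher (2.53%) and 703 lower (3.53%). With only the 4 arrays in the fit 5010 were higher and 2277 lower, and with array weights, which allow arrays unequal spread, 5068 and 2684. Of the genes named below, the weighted fit left Axin2, Ermap and Pgc uncalled (adjusted p = 0.0581, 0.0942 and 0.0587) and called Pdx1, Hes1 and Gstm3 (0.044, 0.0304 and 0.0492). Over all genes the median difference was 0.17. With each array centred on a list of 21 pan-epithelial genes it was -0.60, a shift of -0.76, with 926 higher and 11892 lower, so that 7.22% of calls were higher in place of 68.2%. Centred on all probe sets, named or not, the shift was 0.17 and 79.9% of calls were higher. A difference between 0 and 0.76 therefore changes sign with the choice of scale.

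The gallbladder tissue arrays carried different amounts of liver transcripts. In 62 genes for proteins that hepatocytes secrete or use as enzymes and carriers, the median signal, on the linear scale, was 15.2% of the liver tissue signal in tissue array 1 and 73.0% in tissue array 2. In the organoid arrays it was 0.77% and 0.83%. These are ratios of signals, and the share of liver RNA in each array was not measured. Tissue array 2 minus tissue array 1 had a median of -0.38 for smooth muscle genes and -0.415 for pan-epithelial genes. Alb, the gene of serum albumin, read 6.60 and 6.33 in organoids and 14.30 and 14.30 in tissue, against 14.34 and 14.35 in liver tissue. In tissue array 2 50 of the 62 genes were within 1 log2 unit of liver tissue, in tissue array 1 only 5 were, and in each organoid array 1 was. Of 826 genes with tissue array 2 over 1 log2 unit above tissue array 1, 799 (96.7%) were higher in liver tissue than in tissue array 1.

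**Figure D1:**
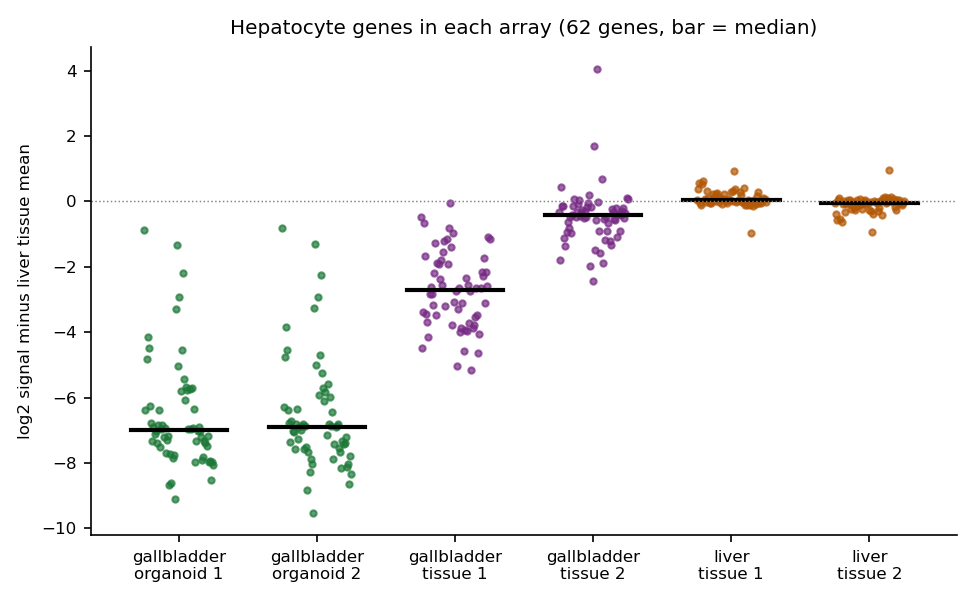
Log2 signal of 62 hepatocyte genes minus their mean in liver tissue, for each gallbladder organoid, gallbladder tissue and liver tissue array; a point is a gene and a bar the median. Tissue array 2 lies close to liver tissue, tissue array 1 lies lower, and both organoid arrays lie lowest.

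Beside 15.2% of all genes, 27 of 28 secreted hepatocyte proteins were lower in organoids and 0 higher, of the enzymes and carriers 30 of 34 were lower and 0 higher, and of 14 hepatocyte transcription factors and receptors 9 were lower and 0 higher. A liver share, the median above for each tissue array, was also subtracted. Secreted hepatocyte proteins had medians of 13.91 and 13.77 in liver tissue, close to the range where differences shrink. The median ratio may therefore exceed the share of liver RNA, and the subtraction may remove too much. Values left under the 1st percentile of an array were set to it, so a sign turned by this step can rest on that floor. Over all genes the subtraction moved the median difference by 1.17, to 1.34, with 93.3% of calls higher. With the rest rescaled the shift was 0.30 and 68.3% of calls were higher. After subtraction of a liver share the counts were 13 lower and 9 higher for secreted proteins, 5 and 14 for enzymes and carriers, and 1 and 8 for transcription factors and receptors. Without tissue array 2 the transcription factors gave 5 lower and 3 higher, without organoid arrays 1 and 2 5 and 3 lower. Serpina1c, an alpha-1-antitrypsin gene, had the largest decrease of all genes at -8.71 ± 0.43 (SE, adjusted p = 3.42e-07), and Alb was at -7.83 ± 0.44 (SE, adjusted p = 8.00e-07). Serpina1c belongs to a family of close copies whose probes may share signal. Cyp3a11 and Cyp2e1, drug-metabolising cytochromes P450, were at -7.66 and -7.37, and Ahsg and Fgg, which encode fetuin-A and a fibrinogen chain, at -7.37 and -7.25. Car3, a carbonic anhydrase of liver, fat and muscle, was at -7.41 ± 0.43, Tdo2, which degrades tryptophan, at -7.12 ± 0.53 and Fbp1, an enzyme of glucose synthesis, at -6.66 ± 0.51. Subtraction of the liver share left Fbp1 at -1.10 (adjusted p = 0.523) and Fgg at -1.74 (adjusted p = 0.368). Of the factors and receptors, Nr0b2, the corepressor SHP, was at -2.94 ± 0.58 and turned to 0.32 with subtraction. Ghr, the growth hormone receptor, was at -2.57 ± 0.39, and Nr1i3, the xenobiotic receptor CAR, at -2.46 ± 0.85, turning to 0.58. Nr1i3 had an adjusted p of 0.14 without organoid array 1, 0.0962 without organoid array 2 and 0.262 without tissue array 2. The single secreted protein not called was Ambp, at 13.11 and 13.16 in organoids and 13.50 and 13.65 in tissue, which was named after its values were seen. Among all genes called lower, 1151 of 3040 (37.9%) had liver tissue over 1 log2 unit above organoids, against 10.2% of all genes, and 1889 did not. The part of these transcripts in each decrease was not tested. Below, several genes that liver also makes are given with their value against tissue array 1 alone, the array with less of this signal.

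The 10 genes with the largest increase included secreted defence and inflammatory proteins. Cxcl5 (probe set 10523120), a chemokine that attracts neutrophils, read 12.85 and 12.71 in organoids and 6.18 and 5.62 in tissue. Its difference of 6.88 ± 0.25 (SE, adjusted p = 4.66e-08) was the largest increase of all genes. Cdh17 (probe set 10503341), the liver-intestine cadherin, read 12.15 and 11.93 in organoids and 5.59 and 5.63 in tissue, a difference of 6.43 ± 0.13 (SE, adjusted p = 5.32e-09). Tissue was near the lower end of the signal range for both, and no tissue array came within 5 log2 units of an organoid array. Reg3b and Reg3g, lectins that bind bacterial cell walls, differed between the tissue arrays. Reg3b read 13.46 and 13.40 in organoids and 8.81 and 5.38 in tissue, and Reg3g 13.42 and 13.28 in organoids and 9.34 and 5.80 in tissue. Their differences of 6.33 ± 0.78 (SE, adjusted p = 0.000128) and 5.78 ± 0.81 (SE, adjusted p = 0.000294) rest on tissue arrays that are over 3 log2 units apart, and their probes may share signal between the copies.

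Chil1, a secreted chitinase-like protein, read 12.34 and 12.07 in organoids and 6.60 and 6.44 in tissue (5.69 ± 0.16 SE, adjusted p = 8.94e-09). Sprr1a, a cornified envelope precursor of stressed epithelium, was at 5.63 ± 0.32. Slc5a8, a sodium-coupled monocarboxylate carrier, read 11.67 and 11.62 in organoids and 6.34 and 5.91 in tissue (5.52 ± 1.42 SE, adjusted p = 0.00961). Its SE also holds the small intestine tissue arrays, which read 13.26 and 6.99. Anxa8, an annexin of fetal-like epithelium, was at 5.52 ± 0.21, Ltf, the iron-binding protein lactoferrin, at 5.46 ± 0.51 and Tnip3, an inhibitor of NF-kB signalling, at 5.42 ± 0.21. These 10 genes were picked only among called genes whose organoid and tissue arrays do not overlap. That both organoid arrays lay above both tissue arrays was therefore fixed by the choice.

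**Figure D2:**
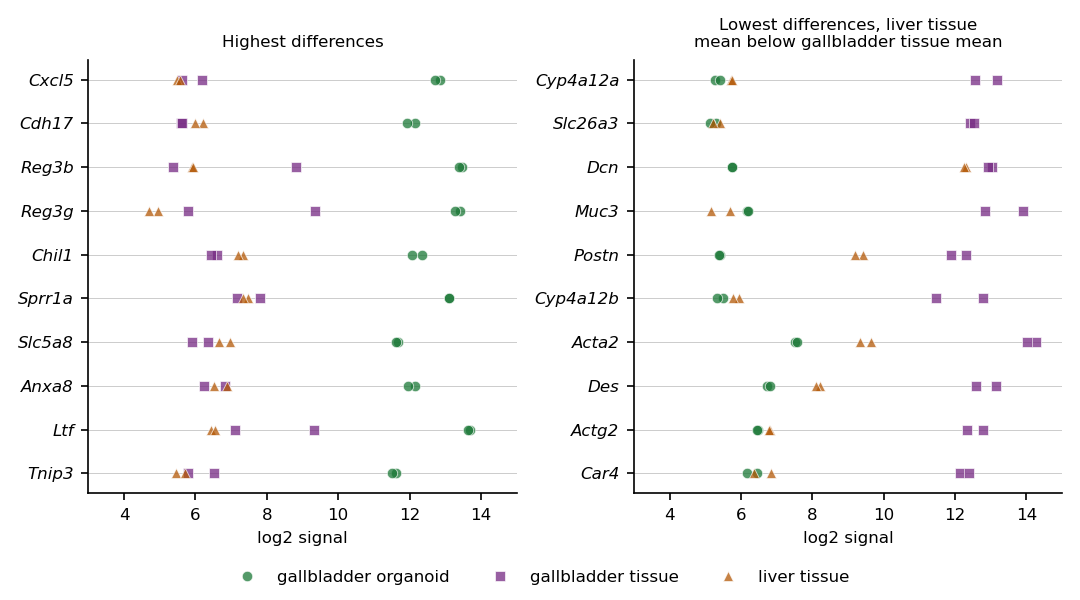
Log2 signal in each gallbladder organoid, gallbladder tissue and liver tissue array for the 10 genes with the largest increase in organoids and the 10 with the largest decrease among genes whose liver tissue mean is below the gallbladder tissue mean. All 20 genes were picked among called genes whose organoid and tissue arrays do not overlap. The tissue arrays of Reg3b and Reg3g stand over 3 log2 units apart.

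Of 28 genes for antimicrobial, acute phase and innate defence proteins, 17 were higher and 2 lower, beside 32.7% and 15.2% of all genes, with a median difference of 0.98 (0.17 over all genes). Lcn2, which starves bacteria of iron by binding siderophores, read 14.07 and 14.15 in organoids and 10.98 and 10.66 in tissue, a difference of 3.29 ± 0.66 (SE, adjusted p = 0.00258). Nos2, inducible nitric oxide synthase, was at 2.99 ± 0.60, and Pglyrp1, a peptidoglycan-binding protein, at 1.86 ± 0.31. Lbp, which presents bacterial lipopolysaccharide, and Wfdc2, an antiprotease, rose by 1.51 ± 0.29 and 1.50 ± 0.23. The members lower in organoids were Hp, the plasma protein haptoglobin (-4.96), and Trf, the iron carrier transferrin (-0.98), which liver secretes. Against tissue array 1 alone these were -3.38 and -0.60, with a liver share subtracted they turned to 2.69 and 0.79, and without organoid array 2 the adjusted p of Trf was 0.0515. Without tissue array 1 17 of this list were higher and 4 lower.

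Of 32 chemokine and cytokine genes, 13 were higher and 9 lower, against 11 and 17 with pan-epithelial centring and 18 and 3 with a liver share subtracted. Il1a, the alarmin interleukin 1 alpha, read 11.04 and 11.05 in organoids and 4.73 and 6.71 in tissue (5.32 ± 0.53 SE, adjusted p = 3.02e-05). The neutrophil chemokine Cxcl2 read 10.72 and 10.65 in organoids and 5.51 and 5.75 in tissue (5.05 ± 0.38 SE, adjusted p = 4.98e-06), and the granulocyte factor Csf3 was at 3.80 ± 0.18. Ccl20, which attracts cells carrying Ccr6, was at 3.66 ± 0.34, Tnf at 3.48 ± 0.23 and the monocyte chemokine Ccl2 at 2.33 ± 0.21. The epithelial chemokines Cxcl16 and Cxcl17 rose by 2.29 and 2.04. Those that fell included Ccl11 (-2.53 ± 0.51), an eosinophil chemokine, and Cxcl12 (-2.27 ± 0.55), a product of stromal and endothelial cells that was at -1.14 against tissue array 1 alone. With a liver share subtracted Cxcl12 turned to 2.64, but tissue was then set to the lowest value allowed, so this does not show higher expression. Its adjusted p was 0.093 with only the 4 arrays. Il6 stayed at the lower end in all 4 arrays, from 3.50 to 3.73. Its groups did not overlap, but it was not called (0.13 ± 0.11 SE, adjusted p = 0.355).

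The promoters of chemokine genes that rose are shown because a motif search found a shared pattern in them. RefSeq windows (GRCm38.p6) of 250 bases before to 50 after a transcription start were held for 22 of the 32 genes, in 23 windows. A match to the NF-kB motif on either strand was in 7 windows (30.4%), against 4.51% of all 32851 windows. The 7 genes were Ccl20, Csf1, Cxcl1, Cxcl2, Cxcl3, Cxcl10 and Il6, of which 5 were called higher and 0 lower. Of the 32 list genes 13 were higher and 9 lower, and of all genes 32.7% and 15.2%. Whether the motif goes with the increase was not tested. This motif was chosen after the values were seen, and a match describes letters only. The 250 bases before the start follow for Cxcl2 (chr5:90903649-90903898, plus strand), Ccl20 (chr1:83116516-83116765, plus strand) and the defence gene Chil1 (chr1:134181906-134182155, plus strand), each 5′ to 3′ along the gene with matches in capitals. In Cxcl2 2 matches overlap.
Cxcl2: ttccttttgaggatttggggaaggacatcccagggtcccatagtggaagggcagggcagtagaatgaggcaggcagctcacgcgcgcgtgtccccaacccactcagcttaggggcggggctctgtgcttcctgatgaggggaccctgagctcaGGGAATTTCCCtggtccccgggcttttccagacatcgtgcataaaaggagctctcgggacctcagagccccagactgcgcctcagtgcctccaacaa
Ccl20: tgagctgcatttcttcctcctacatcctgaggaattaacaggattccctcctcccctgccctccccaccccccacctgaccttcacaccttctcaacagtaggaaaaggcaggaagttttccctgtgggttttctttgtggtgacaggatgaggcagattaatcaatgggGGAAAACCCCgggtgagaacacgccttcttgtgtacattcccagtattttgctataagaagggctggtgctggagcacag
Chil1: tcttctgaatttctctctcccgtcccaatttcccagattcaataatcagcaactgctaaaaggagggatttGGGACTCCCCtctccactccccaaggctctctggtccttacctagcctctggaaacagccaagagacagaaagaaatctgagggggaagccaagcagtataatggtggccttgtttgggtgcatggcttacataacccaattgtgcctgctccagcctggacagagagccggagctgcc

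Cell cycle genes were higher as a group. Of 51, 49 were called higher and 0 lower, with a median difference of 1.50, and 33 were higher and 2 lower with centring on the pan-epithelial genes. Plk1, a mitotic kinase, read 9.85 and 10.10 in organoids and 6.78 and 6.61 in tissue (3.28 ± 0.18 SE, adjusted p = 7.52e-07). Ccna2, cyclin A, read 10.54 and 10.73 in organoids and 7.60 and 7.14 in tissue, a difference of 3.26 ± 0.21, and the spindle checkpoint kinase Bub1 was at 3.14 ± 0.20. Tissue arrays had signals under 8 for all of these. Mki67, the proliferation antigen, rose by 1.87 ± 0.22, and the replication helicase subunit Mcm7 by 2.59 ± 0.13. The largest increase of the list was Cdkn2b, an inhibitor of cyclin D kinases, at 3.42 ± 0.14 (SE, adjusted p = 8.41e-08), and the related inhibitor Cdkn2a rose by 1.05 ± 0.14. The members not called were Cdkn1b (-0.06), another inhibitor, and Ccnd1 (0.17), cyclin D1, named after their values were seen.

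The letters TTTGAA, a core of the cell cycle homology region, were found on either strand in 18 of 45 promoter windows of this list (40%), against 17.9% of all windows. TTTCCCGC, an E2F-type site, was in 6 of 45 (13.3%), against 1.07%. The patterns do not overlap in letters. All 18 and all 6 genes concerned were called higher, but so were 49 of the 51 list genes. The calls therefore do not tie either pattern to the increase. The promoter of Ccnb2 (chr9:70421555-70421804, minus strand), cyclin B2, is shown as an example with TTTGAA in capitals; its signal was 11.02 and 11.13 in organoids and 8.20 and 7.90 in tissue.
Ccnb2: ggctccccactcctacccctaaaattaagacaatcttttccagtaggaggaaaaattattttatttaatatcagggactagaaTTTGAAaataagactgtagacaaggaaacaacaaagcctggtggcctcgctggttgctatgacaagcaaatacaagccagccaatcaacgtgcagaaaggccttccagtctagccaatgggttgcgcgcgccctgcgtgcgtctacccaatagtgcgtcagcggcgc

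Of 19 genes for serine synthesis and the ATF4 stress response 16 were higher and 0 lower (11 and 0 with pan-epithelial centring). Psat1, an enzyme of serine synthesis, read 11.47 and 11.38 in organoids and 7.19 and 7.46 in tissue (4.10 ± 0.13 SE, adjusted p = 2.25e-08). The amino acid carrier Slc7a5 was at 3.49 ± 0.17, Phgdh, the first enzyme of serine synthesis, at 3.10 ± 0.23 and asparagine synthetase Asns at 2.29 ± 0.22. Chac1, which degrades glutathione, was at 2.90 ± 0.60. Of 19 hypoxia and glycolysis genes 11 were higher and 0 lower, led by the lactate carrier Slc16a3 (2.60 ± 0.41), hexokinase Hk2 (2.34 ± 0.26) and the glucose carrier Slc2a1 (1.99 ± 0.46), but with pan-epithelial centring 5 were higher and 5 lower. The glycolytic enzyme Pgk1 was at 1.56 ± 0.24, and Vegfa at -0.54 ± 0.33 (SE, adjusted p = 0.211). Of 21 immediate early and heat shock genes 11 were higher and 0 lower (3 and 1 with that centring), among them Egr1 (3.10 ± 0.75) and Ier3 (2.46 ± 0.57), while Jun was at 0.29 ± 0.99 (SE, adjusted p = 0.831) and Junb at 1.60 ± 0.70 (SE, adjusted p = 0.0841). Fos, another immediate early factor, was at 2.71 ± 0.71 (SE, adjusted p = 0.0104). Fos had an adjusted p of 0.0504 without organoid array 2 and 0.0714 without tissue array 2. Of 24 cholesterol and fatty acid synthesis genes 6 were higher and 1 lower, and without tissue array 2 it was 12 and 1, without tissue array 1 it was 3 and 5. Without organoid array 1 or 2 it was 1 and 1. Subtracting a liver share gave 22 and 0, and with the rest rescaled 12 and 0. The mevalonate enzyme Mvd was at 1.78 ± 0.34. The desaturase Scd1 was at -2.10 ± 0.46, turning to 2.99 with subtraction. Its relative Scd2 was at 1.34 ± 0.42 and Lss, lanosterol synthase, at 1.49 ± 0.43. Scd2 had an adjusted p of 0.0875 without organoid array 1, 0.0934 without organoid array 2 and 0.11 without tissue array 2. Lss had an adjusted p of 0.085 without organoid array 1, 0.0575 without organoid array 2 and 0.0969 without tissue array 1. Of 19 NRF2 antioxidant genes 4 were higher and 4 lower (8 and 3 without tissue array 2, 3 and 2 without organoid array 1, 4 and 2 without organoid array 2), and of 13 nicotinamide and NAD genes 3 and 4 (1 and 2 without organoid array 1, 2 and 2 without organoid array 2). After that subtraction these lists gave 12 and 0, and 9 and 1.

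Among the antioxidant genes, Gpx2, an epithelial glutathione peroxidase, was at 1.99 ± 0.22, and Gclc, an enzyme of glutathione synthesis, at -1.08 ± 0.24. Gstm1, a glutathione transferase, was at -1.69 ± 0.21, and its close relative Gstm3 at -1.54 ± 0.62 (SE, adjusted p = 0.0639). Subtraction of the liver share ended the calls of Gclc (-0.74, adjusted p = 0.0632) and Gstm1 (-0.58, adjusted p = 0.155). Among the NAD genes, Bst1, an NAD-consuming surface enzyme, read 10.01 and 8.97 in organoids and 6.78 and 7.23 in tissue (2.49 ± 0.27). Nnmt, which methylates nicotinamide, was at -2.67 ± 0.54, Aox1, an aldehyde oxidase, at -2.64 ± 0.49 and Qprt, an enzyme of NAD synthesis, at -1.86 ± 0.51. On subtraction Nnmt turned to 3.27 and Qprt to 3.31, with tissue set to the lowest value allowed for both. Qprt had an adjusted p of 0.0612 without organoid array 1 and 0.0567 without organoid array 2.

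Of 14 clock genes 7 were lower and 2 higher, with 5 and 0 without organoid array 1 and 4 and 1 without organoid array 2. Per2, a repressor of the clock, read 8.29 and 8.14 in organoids and 10.35 and 10.31 in tissue (-2.12 ± 0.35 SE, adjusted p = 0.000777), and Nr1d1, REV-ERB alpha, was at -1.52 ± 0.23. After subtraction of a liver share Nr1d1 was at -0.67 (adjusted p = 0.279) and the list gave 2 lower and 3 higher. Dbp, a clock output factor, was at -2.92 ± 0.80 (SE, adjusted p = 0.0131), and Nfil3, its antagonist, at 2.25 ± 0.66 (SE, adjusted p = 0.0183). Dbp had an adjusted p of 0.058 without organoid array 1 and 0.0589 without organoid array 2. Nfil3 had an adjusted p of 0.0705 without organoid array 1, 0.0777 without organoid array 2 and 0.076 without tissue array 1. Arntl, the activator BMAL1, was higher at 2.06 ± 0.53 (SE, adjusted p = 0.00934), and without organoid array 1 its adjusted p was 0.0533. The hour of sampling is not in the labels, and its part in these values was not tested.

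Defining epithelial markers were present in both groups. Of 21 pan-epithelial genes 11 were higher and 0 lower, or 3 higher and 7 lower when arrays were centred on the same list. Krt19, a keratin of simple epithelia, read 13.35 and 13.43 in organoids and 13.52 and 13.24 in tissue (0.01 ± 0.12 SE, adjusted p = 0.945). Epcam, an adhesion protein of epithelium, read 12.65 and 12.54 in organoids and 11.86 and 11.24 in tissue (1.04 ± 0.19 SE, adjusted p = 0.00129). The call of Epcam was lost with pan-epithelial centring (0.28, adjusted p = 0.0899) and with the liver share subtracted and the rest rescaled (0.011, adjusted p = 0.974). Ap1m2, a sorting adaptor of epithelium, and St14, the protease matriptase, rose by 1.47 ± 0.17 and 1.18 ± 0.19. Cldn4, a tight junction claudin, stood apart at 12.58 and 12.53 in organoids and 8.28 and 8.27 in tissue, a difference of 4.27 ± 0.17 (SE, adjusted p = 9.57e-08). Epcam was lower in tissue array 2 than in tissue array 1, and 2 of the 21 genes were higher in array 2. In whole tissue, fewer epithelial cells and less RNA per cell cannot be told apart, and this holds for each cell type below.

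Of 20 surface and structural genes of bile duct and gallbladder, 12 were higher and 4 lower, which became 6 and 7 with pan-epithelial centring. Krt20, a keratin of mature surface cells, read 11.01 and 10.93 in organoids and 7.397 and 5.64 in tissue (4.45 ± 0.40 SE, adjusted p = 1.72e-05). Krt23 and Krt7, other simple-epithelium keratins, were at 3.07 ± 0.13 and 2.02 ± 0.22. Gabrp, a GABA receptor subunit, read 13.84 and 13.82 in organoids and 11.90 and 11.23 in tissue (2.26 ± 0.18). Muc1, a membrane mucin, read 13.67 and 13.71 in organoids and 13.83 and 13.47 in tissue (0.04 ± 0.40 SE, adjusted p = 0.947), and its groups overlapped. Muc4, a larger membrane mucin, fell to 9.28 and 8.69 from 12.35 and 11.08 (-2.73 ± 0.37 SE, adjusted p = 0.000245). Muc3, an intestinal-type membrane mucin outside that list, fell further, from 13.92 and 12.84 to 6.17 and 6.20 (-7.20 ± 0.44 SE, adjusted p = 1.28e-06). Pkhd1, the fibrocystin of cilia, was at -2.42 ± 0.19.

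Of 17 biliary and foregut transcription factors, 3 were higher and 2 lower, with 3 and 5 without tissue array 1 and 7 and 2 without tissue array 2. They were 10 and 1 with a liver share subtracted and 2 and 5 with pan-epithelial centring. Sox9, a factor of duct and progenitor cells, read 12.07 and 12.002 in organoids and 9.43 and 9.02 in tissue (2.81 ± 0.22 SE, adjusted p = 7.12e-06), and Sox4, its relative, rose by 3.42 ± 0.15. Onecut1, HNF6, read 10.33 and 10.37 in organoids and 11.85 and 11.88 in tissue with a difference of -1.52 ± 0.19 (SE, adjusted p = 0.000124). Sox17, which sets gallbladder against pancreas fate, read 10.00 and 9.95 in organoids and 10.66 and 10.23 in tissue (-0.46 ± 0.18 SE, adjusted p = 0.0613), with both organoid arrays below both tissue arrays. Pdx1, a factor of the posterior foregut, read 8.60 and 8.57 in organoids and 6.99 and 7.02 in tissue (1.58 ± 0.70 SE, adjusted p = 0.088). Sox17 and Pdx1 were not called. Sox17 was called lower with quantile normalisation (adjusted p = 0.0365), with the replicate number as a block (0.0359) and without tissue array 2 (-0.68, adjusted p = 0.0195). Pdx1 was called higher with only the 4 arrays (adjusted p = 0.00308).

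Transport genes changed in both directions. Of 29 genes for ion and water transport 8 were higher and 9 lower, against 3 and 17 with pan-epithelial centring. Slc26a3 (probe set 10395201), a chloride-bicarbonate exchanger, read 5.31 and 5.13 in organoids and 12.42 and 12.54 in tissue (-7.26 ± 0.17 SE, adjusted p = 5.54e-09). Car4, a carbonic anhydrase on the apical membrane, read 6.18 and 6.44 in organoids and 12.15 and 12.39 in tissue (-5.96 ± 0.21 SE, adjusted p = 3.58e-08). Liver tissue was at the organoid level for both, at 5.30 and 6.60. Slc9a3, the sodium-proton exchanger NHE3, read 9.42 and 9.90 in organoids and 13.19 and 12.01 in tissue (-2.94 ± 0.36 SE, adjusted p = 0.000118), and its relative Slc9a2 was at -1.91 ± 0.17. The water channel Aqp1, which endothelium also makes, read 8.38 and 8.25 in organoids and 13.12 and 12.81 in tissue (-4.65 ± 0.35 SE, adjusted p = 4.98e-06). Aqp8, another water channel, was at -2.93 ± 0.34 and at -2.89 against tissue array 1 alone, but at 0.85 with a liver share subtracted, and liver tissue stood at 11.96. All 6 genes had both organoid arrays below both tissue arrays, as did 25.1% of all genes. For Slc26a3 and Car4, which are among the leading lower genes, this was a condition of the choice.

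Among genes of chloride secretion, Cftr, the chloride channel of cystic fibrosis, read 9.02 and 8.89 in organoids and 7.01 and 6.23 in tissue (2.34 ± 0.21 SE, adjusted p = 1.62e-05). Slc12a2, the basolateral carrier NKCC1 that loads cells with chloride, read 12.56 and 12.40 in organoids and 10.29 and 9.68 in tissue (2.50 ± 0.24). Slc26a9, an apical chloride carrier, read 11.45 and 11.37 in organoids and 9.33 and 7.56 in tissue (2.97 ± 0.42). Car2, the cytosolic carbonic anhydrase, was at 0.29 ± 0.81 (SE, adjusted p = 0.79), the calcium-activated chloride channel Ano1 at 0.05 ± 0.23 (SE, adjusted p = 0.866) and the bicarbonate importer Slc4a4 at -0.78 ± 0.34 (SE, adjusted p = 0.0808), and these 3 were not called. Kcnq1, a potassium channel, fell by 1.04 (± 0.23).

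**Figure D3:**
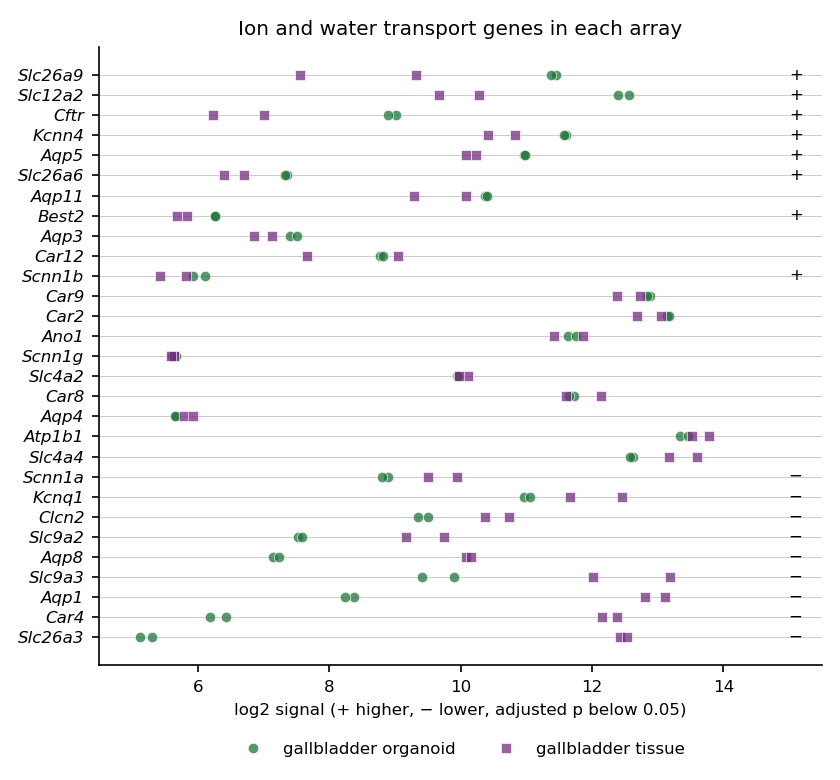
Log2 signal of 29 ion and water transport genes in each gallbladder organoid array (circles) and tissue array (squares), ordered by their difference. Slc26a3, Car4 and Aqp1 lie lowest in organoids relative to tissue, and Slc26a9, Slc12a2 and Cftr highest; with centring on pan-epithelial genes 3 are called higher and 17 lower.

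Of 25 genes for bile acid and lipid transport and bile acid receptors 3 were higher and 12 lower, with 1 and 10 without organoid array 1 or 2. Slc10a2, the apical bile acid importer ASBT, read 10.35 and 10.40 in organoids and 10.46 and 9.95 in tissue (0.17 ± 1.32 SE, adjusted p = 0.93), with overlapping groups. Gpbar1, the membrane bile acid receptor TGR5, read 7.60 and 7.74 in organoids and 9.15 and 8.83 in tissue (-1.32 ± 0.12 SE, adjusted p = 2.21e-05), and liver tissue stood at 7.62, as low as organoids. Nr1i2, the xenobiotic receptor PXR, fell by 3.52 (± 0.10) but was at 0.016 with a liver share subtracted, and Abcb1a, a drug exporter, by 3.11 (± 0.35). Npc1l1, the cholesterol importer that ezetimibe blocks, read 7.36 and 7.75 in organoids and 10.79 and 8.97 in tissue (-2.33 ± 0.44 SE, adjusted p = 0.00181). Nr1h4, the bile acid receptor FXR, read 7.09 and 6.99 in organoids and 8.86 and 10.47 in tissue, and Abcc2, an exporter of conjugates, 6.26 and 6.30 in organoids and 9.44 and 12.35 in tissue. Their differences of -2.63 and -4.61 were -1.82 and -3.16 against tissue array 1 alone. With a liver share subtracted neither was called, at 1.58 (adjusted p = 0.163) and -0.92 (adjusted p = 0.596). Of those that rose, Abcc4, a basolateral bile acid exporter, was at 2.58 ± 0.16 (SE, adjusted p = 1.59e-06). With a liver share subtracted from each tissue array, 9 members were higher and 3 lower, and with the rest rescaled 7 and 3.

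Of 14 gut hormone and secretin family receptors 7 were higher and 4 lower, and 1 and 6 with pan-epithelial centring. Without organoid array 2 4 were higher and 3 lower. Cckar, the cholecystokinin receptor of gallbladder muscle, read 6.77 and 6.73 in organoids and 11.38 and 10.77 in tissue (-4.33 ± 0.29 SE, adjusted p = 2.26e-06), so that organoids were at the level of liver tissue (6.79). Adcyap1r1, the PACAP receptor, fell by 2.96 (± 0.11). Glp1r, the receptor of glucagon-like peptide 1, rose from 6.13 and 6.00 to 9.60 and 9.32 (3.40 ± 0.45 SE, adjusted p = 0.000204). P2ry2, a receptor of extracellular ATP, was at 1.73 ± 0.52 (SE, adjusted p = 0.0201). P2ry2 had an adjusted p of 0.0841 without organoid array 1, 0.0732 without organoid array 2 and 0.0934 without tissue array 2.

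Genes that answer the factors of the medium were mixed. Of 16 Wnt targets 9 were higher and 3 lower (4 and 6 with pan-epithelial centring, 8 and 1 without organoid array 1). Lgr5, a receptor for R-spondins and stem cell marker, read 10.56 and 10.18 in organoids and 6.54 and 7.90 in tissue (3.16 ± 0.40 SE, adjusted p = 0.000152), and liver tissue stood at 8.90. Myc and the Eph receptor Ephb3 rose by 2.65 ± 0.45 and 1.67 ± 0.18. Axin2, a general Wnt target, read 8.55 and 8.41 in organoids and 7.97 and 8.04 in tissue (0.47 ± 0.10 SE, adjusted p = 0.00435), and Nkd1, a Wnt feedback inhibitor, was lower at -1.91 ± 0.16 (SE, adjusted p = 8.86e-06). Of 12 BMP targets 5 were higher and 2 lower, with 2 higher without organoid array 1, organoid array 2 or tissue array 2. With pan-epithelial centring 0 were higher and 5 lower. Hamp, the iron hormone hepcidin made by liver, was at -6.27 ± 0.30, and at -1.14 (adjusted p = 0.513) with a liver share subtracted. Id1, a target factor, was at 0.83 ± 0.29 (SE, adjusted p = 0.0389). Id1 had an adjusted p of 0.191 without organoid array 1, 0.0686 without organoid array 2 and 0.279 without tissue array 2. Of 27 receptors of the medium factors and their regulators 6 were higher and 9 lower, with 3 higher without organoid array 2 or tissue array 1 and 6 lower without organoid array 1, organoid array 2 or tissue array 1. They were 1 and 18 with pan-epithelial centring and 11 and 4 with a liver share subtracted. Smad7, an inhibitor of BMP signals, was at 0.80 ± 0.17 and Bambi, a decoy receptor, at -0.78 ± 0.10. The ligands Hgf, Fgf7, Rspo3 and Bmp2 were lower at -2.26, -1.62, -1.63 and -1.84, but Hgf turned to 0.46 and Bmp2 to 0.90 with a liver share subtracted. The receptors Met (-0.24 ± 0.14 SE, adjusted p = 0.175) and Egfr (0.39 ± 0.55 SE, adjusted p = 0.583) were not called. Egfr read 11.85 and 11.82 in organoids and 10.34 and 12.54 in tissue, with liver tissue at 12.73. It was called higher without tissue array 2 (1.49, adjusted p = 0.0037) and with a liver share subtracted (3.20, adjusted p = 0.00233). Of 16 Notch genes 5 were higher and 3 lower, near the 32.7% and 15.2% of all genes. The target Hey1 was at 1.53 ± 0.16 and the ligands Jag2 and Dll4 at 1.50 ± 0.17 and -1.16 ± 0.17. Dll4 turned to 0.16 with a liver share subtracted, and with pan-epithelial centring 2 of the list were higher and 10 lower. The targets Nrarp and Hes1 were at 1.41 ± 0.24 (SE, adjusted p = 0.00102) and 1.17 ± 0.44 (SE, adjusted p = 0.0505).

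Of 13 epithelial progenitor markers 9 were higher and 1 lower. Cd44, a hyaluronan receptor, read 13.21 and 13.18 in organoids and 12.21 and 12.05 in tissue (1.06 ± 0.18 SE, adjusted p = 0.00102). Prom1, CD133, was at 0.79 ± 0.21 (SE, adjusted p = 0.0117), with 0.0646 without organoid array 2 and 0.0719 without tissue array 2. St14 was also on this list, and Cd9, a tetraspanin, was at 1.09 ± 0.32 (SE, adjusted p = 0.0185). Cd9 had an adjusted p of 0.0774 without organoid array 1, 0.0721 without organoid array 2 and 0.084 without tissue array 2. Aldh1a1, a retinaldehyde dehydrogenase, read 8.65 and 8.33 in organoids and 12.30 and 13.23 in tissue (-4.27 ± 0.26 SE, adjusted p = 1.39e-06), with liver tissue at 12.86. Without organoid array 2 the progenitor count was 6 higher, and with pan-epithelial centring 2 were higher and 3 lower. Of 16 YAP target and fetal-like genes 8 were higher and 2 lower. Il1rn, the interleukin 1 receptor antagonist, read 12.94 and 12.94 in organoids and 8.71 and 7.83 in tissue (4.67 ± 0.25), Ankrd1, a YAP target, was at 3.93 ± 0.21 and mesothelin Msln at 3.90 ± 0.26. Ccn2 and Clu, others of the list, were at 0.74 ± 0.33 (SE, adjusted p = 0.0935) and 0.05 ± 0.17 (SE, adjusted p = 0.841).

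Of 15 tuft cell markers 2 were higher and 5 lower, with 3 lower without organoid array 2 or tissue array 2. Rgs13, a G protein regulator of these chemosensory cells, read 5.07 and 4.78 in organoids and 7.49 and 7.76 in tissue (-2.70 ± 0.35 SE, adjusted p = 0.000181). Gng13, a G protein subunit, was at 1.32 ± 0.15, Hpgds, a prostaglandin synthase, at -1.19 ± 0.25 and Il17rb, the interleukin 25 receptor, at -1.10 ± 0.25. With a liver share subtracted Hpgds was at -0.44 (adjusted p = 0.355) and Il17rb turned to 1.71. Of 16 gastric-type and trefoil genes 3 were higher and 4 lower, with 5 and 5 without tissue array 1. Tff3 and Pgc, a trefoil peptide and pepsinogen C, were at -2.24 ± 0.36 and -1.93 ± 0.47, and Tff1, another trefoil peptide, at 1.90 ± 0.19. Tff2, a trefoil peptide of mucous glands, read 7.72 and 7.89 in organoids and 11.73 and 10.39 in tissue (-3.25 ± 0.92 SE, adjusted p = 0.0156); its adjusted p was 0.0710 and 0.0611 without organoid arrays 1 and 2 and 0.0875 without tissue array 1. Of 21 goblet, Paneth and endocrine genes 3 were higher and 2 lower. The lower ones were the lysozymes Lyz1 (-2.49 ± 0.21) and Lyz2 (-4.08 ± 0.29), which are close copies, and Lyz2 is also a macrophage gene. Lyz2 turned to 0.19 (adjusted p = 0.891) with a liver share subtracted. Mmp7, a matrix protease, and Atoh1, a secretory lineage factor, were at 1.22 ± 0.38 (SE, adjusted p = 0.0231) and 0.63 ± 0.12. Mmp7 had an adjusted p of 0.0932 without organoid array 1 and 0.0808 without organoid array 2.

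Smooth muscle and connective tissue genes were lower as groups. Of 24 smooth muscle genes 22 were lower and 1 higher. Acta2 (probe set 10467124), smooth muscle actin, read 7.52 and 7.57 in organoids and 14.26 and 14.01 in tissue (-6.59 ± 0.16 SE, adjusted p = 6.87e-09). Des, the muscle filament desmin, read 6.73 and 6.81 in organoids and 13.16 and 12.58 in tissue, and Actg2, the gamma actin of visceral muscle, 6.48 and 6.46 in organoids and 12.78 and 12.33 in tissue. Myh11, smooth muscle myosin, was at -5.95 ± 0.19 and Myocd, the coactivator that drives these genes, at -2.82 ± 0.15. The 24 genes were all higher in tissue array 1 than in tissue array 2, by a median of 0.38. The member higher in organoids was Pdlim7 (0.99 ± 0.16), an adaptor of actin fibres, named after its values were seen. CArG boxes, the sites of serum response factor, were found in 3 of 24 promoter windows of this list (12.5%), against 1.63% of all windows. They belong to Ldb3, which was not called (-0.16 ± 0.14 SE, adjusted p = 0.387), and Myl9, the myosin light chain, which read 8.94 and 9.10 in organoids and 13.76 and 13.20 in tissue. The Myl9 promoter (chr2:156775214-156775463, plus strand) is given with its match in capitals.
Myl9: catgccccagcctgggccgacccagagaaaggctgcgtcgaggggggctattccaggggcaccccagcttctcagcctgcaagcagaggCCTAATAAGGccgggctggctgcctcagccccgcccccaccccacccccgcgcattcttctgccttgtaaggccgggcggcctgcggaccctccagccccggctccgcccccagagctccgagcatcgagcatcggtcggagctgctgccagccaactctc

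Of 32 fibroblast and matrix genes 28 were lower and 1 higher. Dcn, the collagen-binding proteoglycan decorin, read 5.76 and 5.76 in organoids and 13.04 and 12.94 in tissue (-7.23 ± 0.15 SE, adjusted p = 5.32e-09). Postn, periostin, read 5.40 and 5.38 in organoids and 12.31 and 11.90 in tissue (-6.71 ± 0.26 SE, adjusted p = 8.11e-08). Vim, the filament vimentin, was at -5.78 ± 0.16, Sparc at -5.67 ± 0.14 and the collagen chain Col1a1 at -2.04 ± 0.12. The 1 gene that rose was Fbln2, a fibulin (1.88 ± 0.17), named after its values were seen. Of 25 basement membrane and integrin genes 7 were higher and 11 lower. Itga2, a collagen receptor subunit, read 13.04 and 12.99 in organoids and 8.17 and 7.13 in tissue (5.37 ± 0.34 SE, adjusted p = 1.61e-06), and Lamb3, a chain of the epithelial laminin, rose by 1.95 ± 0.23. Itga8, Nid1 and Lamb1, an integrin of mesenchyme, a nidogen and a laminin chain, fell by 4.39, 3.07 and 2.71. Organoids grow in Matrigel, a basement membrane gel.

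Of 24 endothelial markers 21 were lower and 0 higher, led by Emcn, endomucin (-4.88 ± 0.32), and Mmrn1 (-4.25 ± 0.16), a marker of lymphatic vessels. Eng, endoglin, was at -3.74 ± 0.28. Cdh5, the endothelial cadherin, was at -3.36 ± 0.19 and at -0.35 (adjusted p = 0.758) with a liver share subtracted. Pecam1, CD31, read 6.38 and 6.37 in organoids and 8.42 and 9.26 in tissue (-2.47 ± 0.23 SE, adjusted p = 2.06e-05). In 22 of the 24 tissue array 2 was above tissue array 1, by a median of 0.58, and after subtraction of the liver share 6 were lower and 4 higher. Of 24 macrophage and dendritic markers 18 were lower and 3 higher, 0 lower and 8 higher after that subtraction. With the rest rescaled 2 were lower and 6 higher. The list medians were 6.47 and 6.54 in organoid arrays 1 and 2, and 8.26 and 8.55 in tissue arrays 1 and 2. Ptprc, CD45 of all leukocytes, read 6.26 and 6.25 in organoids and 8.12 and 8.49 in tissue (-2.04 ± 0.28 SE, adjusted p = 0.000276), with liver tissue at 9.15 and a difference of 0.57 with the liver share subtracted. Cd14, the lipopolysaccharide coreceptor, went the other way, 12.62 and 12.54 in organoids and 9.78 and 8.99 in tissue (3.19 ± 0.36 SE, adjusted p = 7.24e-05). C1qb, a complement chain, was at -3.36 ± 0.21 and Laptm5, a lysosomal protein of leukocytes, at -2.70 ± 0.27, against 0.12 (adjusted p = 0.924) and -0.97 (adjusted p = 0.216) with subtraction. Without organoid array 2 the macrophage counts were 13 lower and 2 higher, without organoid array 1 14 and 1. Of 7 genes of MHC class II antigen presentation 6 were lower and 0 higher. H2-Aa, an alpha chain, read 5.89 and 5.80 in organoids and 11.61 and 11.68 in tissue (-5.80 ± 0.34 SE, adjusted p = 1.06e-06), and the invariant chain Cd74 was at -5.40 ± 0.27. The beta chains H2-Ab1 and H2-Eb1 were at -4.00 ± 0.23 and -3.19 ± 0.23. Of 22 interferon response genes 10 were lower and 0 higher, for example Oasl2 (-2.10 ± 0.47 SE, adjusted p = 0.00465), and 2 and 2 after subtraction and rescaling. Without organoid array 2 5 interferon genes were lower, and without tissue array 1 6. The largest decrease of the interferon list was that of Oas2, an antiviral synthetase, which read 8.01 and 7.77 in organoids and 11.75 and 8.61 in tissue (-2.29 ± 0.78 SE, adjusted p = 0.0339). Oas2 had an adjusted p of 0.096 without organoid array 1, 0.129 without organoid array 2 and 0.189 without tissue array 1. Usp18, a brake on interferon signals, was at -1.47 ± 0.61 (SE, adjusted p = 0.071) and Gbp3, a guanylate-binding protein, at -1.38 ± 0.29. With a liver share subtracted they turned to 2.43 and 0.89.

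Of 20 lymphocyte markers 3 were lower and 1 higher, with Jchain, the joining chain of antibodies, at -2.55 ± 0.42. Il7r, a lymphocyte cytokine receptor, was at -1.35 ± 0.25, Cd52 at -1.34 ± 0.43 (SE, adjusted p = 0.0263) and Cd3g, a T cell receptor chain, at -1.09 ± 0.48 (SE, adjusted p = 0.086). Cd52 had an adjusted p of 0.0725 without organoid array 1, 0.119 without organoid array 2 and 0.126 without tissue array 2. On subtraction Cd52 turned to 1.33. Of 8 mast cell markers 3 were lower, among them the carboxypeptidase Cpa3, which read 5.06 and 5.07 in organoids and 9.34 and 7.52 in tissue (-3.36 ± 0.44 SE, adjusted p = 0.000196). The proteases Mcpt4 and Tpsb2 were at -2.38 ± 0.35 and -0.80 ± 0.15, and the receptor Kit, also made by interstitial cells of Cajal, at 0.91 ± 0.36 (SE, adjusted p = 0.0594). Of 14 neural and glial markers 2 were lower and 4 higher (1 higher without organoid array 2, 2 without organoid array 1 or tissue array 2), and the sodium channel Scn7a was at -3.70 ± 0.25. Cdh19, a cadherin of glia, was at -1.04 ± 0.21, the neuronal Elavl3 at 0.86 ± 0.15 and Stmn2 at 1.50 ± 0.42 (SE, adjusted p = 0.0143). Stmn2 had an adjusted p of 0.0541 without organoid array 1, 0.0706 without organoid array 2 and 0.0693 without tissue array 2. Of 5 markers of interstitial cells of Cajal and PDGFRA cells 3 were lower and 0 higher, with the connexin Gja1 at -0.92 ± 0.22, the factor Etv1 at -0.82 ± 0.16 and the potassium channel Kcnn3 at -0.52 ± 0.13 (SE, adjusted p = 0.00976). Kcnn3 had an adjusted p of 0.0682 without organoid array 1 and 0.0607 without tissue array 1. Of 10 mesothelial markers 6 were lower and 2 higher. The largest difference was an increase of 3.90, that of mesothelin Msln. Gpm6a was at -2.93 ± 0.29, Upk3b at -1.65 ± 0.30 and Lrrn4 at -1.54 ± 0.16.

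Of 11 adipocyte markers 8 were lower and 0 higher, with the fatty acid carrier Fabp4 at -4.20 ± 0.34, adiponectin Adipoq at -3.78 ± 0.73 and resistin Retn at -4.03 ± 0.83; Car3 is on this list too. Of 4 erythrocyte markers 2 were higher and 1 lower. Alas2, of haem synthesis, was at -1.48 ± 0.46 (SE, adjusted p = 0.0233) and turned to 2.00 with a liver share subtracted. Alas2 had an adjusted p of 0.0843 without organoid array 1 and 0.0901 without organoid array 2. Epb42, Ermap and Slc4a1, red cell membrane proteins, were at 0.78 ± 0.13, 0.36 ± 0.11 and 0.29 ± 0.13, the last not called. Ermap had an adjusted p of 0.0901 without organoid array 1, 0.0732 without organoid array 2 and 0.102 without tissue array 2. Of 20 pancreatic acinar markers 2 were lower and 0 higher: Gp2, a zymogen granule protein, read 5.78 and 5.72 in organoids and 11.07 and 8.74 in tissue (-4.15 ± 0.68 SE, adjusted p = 0.000743) and Ctrb1, a chymotrypsinogen, 8.88 and 9.37 in organoids and 13.48 and 13.69 in tissue (-4.46 ± 1.44 SE, adjusted p = 0.0278). The adjusted p of Ctrb1 was 0.114 and 0.0837 without organoid arrays 1 and 2, and 0.0704 and 0.0808 without tissue arrays 1 and 2. Pla2g1b, a phospholipase, was at -1.96 ± 1.07 (SE, adjusted p = 0.157) and Reg1, a secreted lectin, at 0.80 ± 1.59 (SE, adjusted p = 0.705). Leaving out any of the 4 arrays left 1 acinar marker lower. Cpa1, a defining acinar carboxypeptidase, was near the lower end in all 4 arrays, from 6.52 to 6.85.

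**Figure D4:**
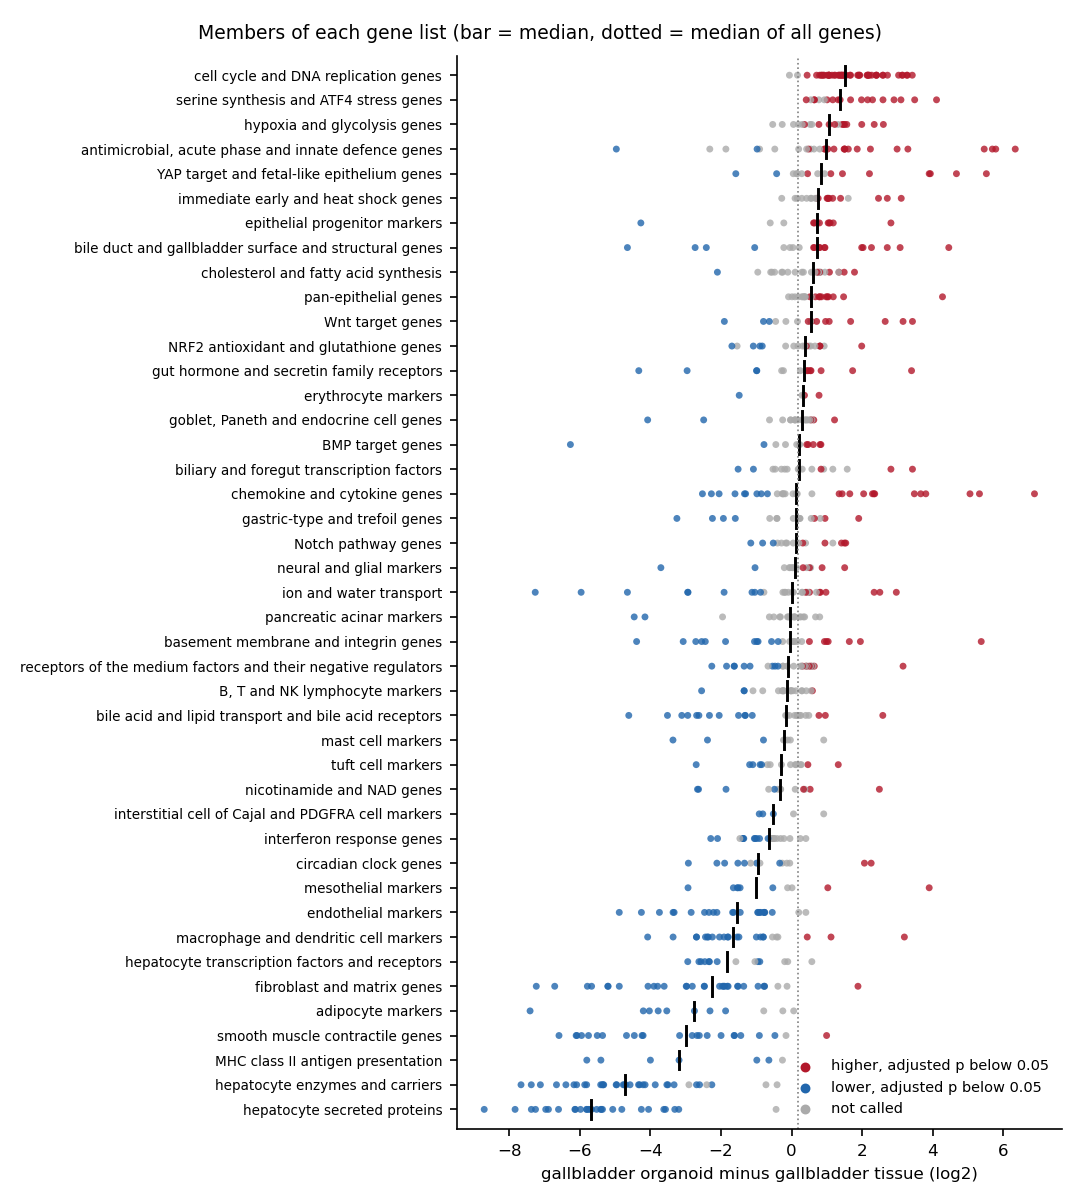
Difference between gallbladder organoids and gallbladder tissue, in log2 units, for each member of 43 gene lists ordered by their median; bars are medians, colours mark genes called higher, lower or not, and the dotted line is the median of all genes. Cell cycle genes have the highest median and secreted hepatocyte proteins the lowest; centring on pan-epithelial genes moves every point 0.76 to the left.

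The scale and the fit decided the calls of some genes named above. Centring on pan-epithelial genes ended the calls of Cd44, Cd9, Cdkn2a, Csf1, Cxcl1, Elavl3, Epb42, Epcam, Id1, Lss, Mmp7, Nfil3, Nrarp, P2ry2, Pdlim7, Pgk1, Prom1, Scd2, Smad7 and Stmn2 and made calls of Cd3g, Cdkn1b, Gstm3, Ldb3, Met, Pla2g1b, Slc4a4, Sox17, Usp18 and Vegfa, each in the direction given. Subtracting a liver share ended those of Abcc2, Cdh19, Cdh5, Etv1, Fbp1, Fgg, Gclc, Gstm1, Hamp, Hpgds, Il7r, Kcnn3, Laptm5, Nr1d1, Oas2, Tpsb2 and Upk3b, beside the genes whose sign turned, and with the rest rescaled those of Abcc2, Ap1m2, Bambi, Cd44, Cd9, Cdh5, Epcam, Fbp1, Fgg, Hamp, Id1, Lbp, Mmp7, Myc, Nr1i2, Nr1i3, P2ry2, Pdlim7, Scd2, St14, Trf and Wfdc2 ended. In the fit of only the 4 arrays Alas2, Aox1, Cxcl12, Ermap, Id1, Il17rb, Kcnn3, Kcnq1, Lss, Mmp7, Nnmt, Npc1l1, Nr1i3, Oas2, Oasl2, Prom1, Qprt and Trf were not called, and Ambp, Cd3g, Gstm3, Hes1, Junb, Kit, Pdx1, Slc4a4 and Usp18 were. Without tissue array 1 Ccn2 was called (1.19, adjusted p = 0.0178), and without tissue array 2 Ldb3 was (-0.37, adjusted p = 0.0448).

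List counts moved as well. The liver subtraction without rescaling moved the median over all genes by 1.17, and the list counts after it hold that shift too. With pan-epithelial centring the counts were 1 higher and 9 lower for tuft markers, 1 and 11 for gastric-type genes, 0 and 6 for goblet, Paneth and endocrine genes, 11 and 5 for defence genes, 0 and 17 for interferon genes, 1 and 7 for NRF2 genes, 1 and 8 for NAD genes, 1 and 11 for clock genes, 1 and 4 for cholesterol and fatty acid synthesis, 1 and 15 for bile acid genes, 3 and 18 for basement membrane genes, 6 and 4 for YAP and fetal-like genes, 0 and 13 for lymphocyte markers, 0 and 7 for mast cell markers and 0 and 9 for neural markers. After subtraction of a liver share they were 5 higher and 1 lower for tuft markers, 9 and 1 for goblet, Paneth and endocrine genes, 5 and 4 for gastric-type genes, 9 and 2 for hormone receptors, 11 and 1 for Wnt targets, 8 and 0 for BMP targets, 9 and 0 for Notch genes, 23 and 0 for defence genes, 3 and 1 for interferon genes, 8 and 7 for basement membrane genes, 6 and 1 for lymphocyte markers, 2 and 2 for mast cell markers, 6 and 1 for neural markers and 2 and 3 for mesothelial markers. Array weights gave 4 higher and 6 lower for the receptors of the medium factors, 1 and 3 for NAD genes, 5 and 2 for biliary transcription factors and 1 and 3 for tuft markers. With only the 4 arrays the bile acid list had 8 lower, the hepatocyte transcription factors 5 and NAD genes 2 higher and 0 lower.

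Whether the change was particular to gallbladder was tested as an interaction, the gallbladder difference minus the mean of the organoid-tissue differences in liver and small intestine. Over all genes 37.9% passed. Chil1 had 5.69 in gallbladder, -0.14 in liver and -0.51 in small intestine, and the interaction was 6.01 ± 0.19 (SE, adjusted p = 1.39e-07). Cxcl5 had 5.66 in liver and -0.05 in small intestine, with an interaction of 4.07 (adjusted p = 1.94e-05). Slc26a3 had -0.19 and -0.67 in the other organs and an interaction of -6.83 (adjusted p = 1.11e-07); small intestine organoids read 11.26 and 11.33. Cyp4a12a, a fatty acid hydroxylase whose probes may share signal with Cyp4a12b, read 5.28 and 5.40 in organoids and 12.57 and 13.17 in tissue and had an interaction of -8.77 (adjusted p = 8.52e-08). Cckar had one of -3.98 (adjusted p = 4.58e-05).

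Other genes were also compared between organs. Sox9 rose by 2.81, 2.43 and 2.44 in gallbladder, liver and small intestine, with an interaction of 0.38 ± 0.27 (adjusted p = 0.301). Mki67 had 1.87, 2.09 and 1.37 (interaction 0.14, adjusted p = 0.709). Lgr5 had 3.16, 0.26 and 3.79 (interaction 1.13, adjusted p = 0.0938). Krt19, Muc1 and Epcam rose by 6.41, 6.44 and 5.32 in liver, where tissue is mostly hepatocytes, and had interactions of -3.15, -2.89 and -1.47. Acta2 fell by 6.59 in gallbladder, 2.20 in liver and 5.43 in small intestine, where its tissue arrays read 12.96 and 12.56.

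**Figure D5:**
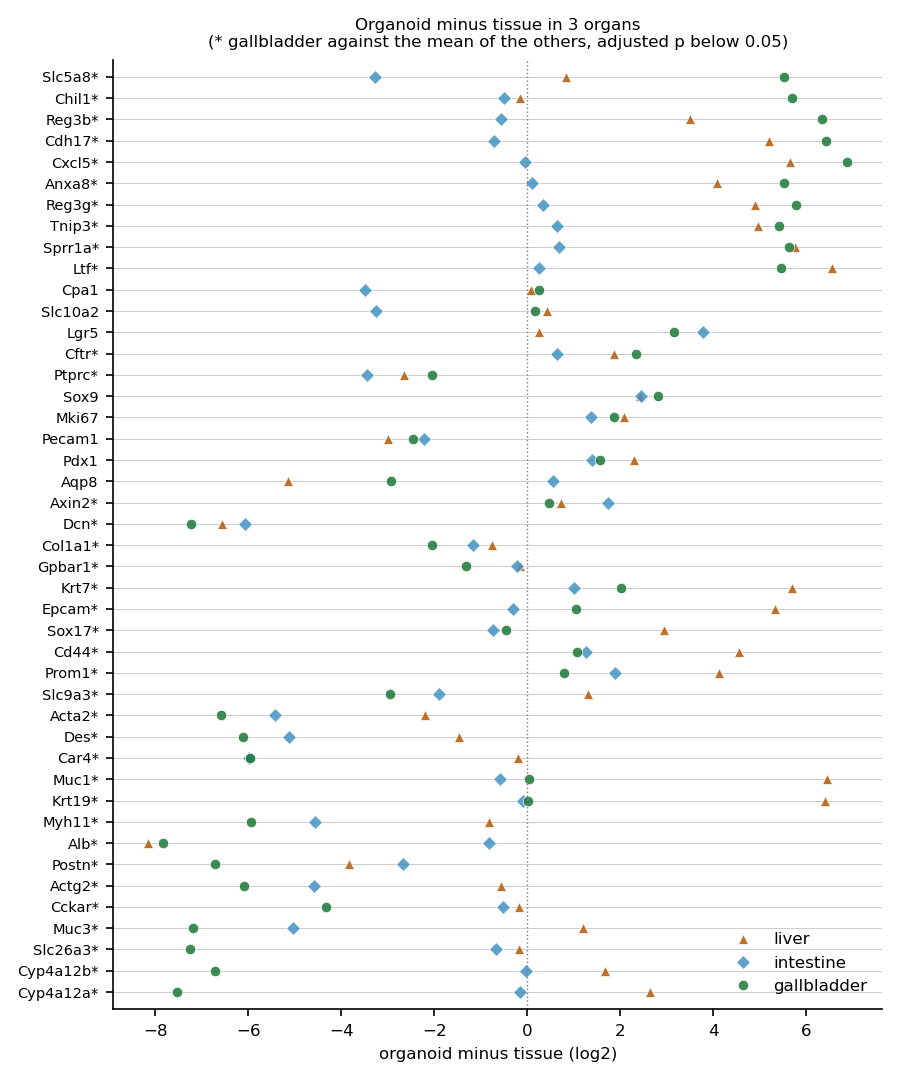
Organoid minus tissue, in log2 units, for gallbladder (circles), liver (triangles) and small intestine (diamonds), for the 10 leading higher genes, the 10 leading lower genes less expressed in liver than in gallbladder tissue, and a fixed set of markers; an asterisk marks an adjusted p below 0.05 for gallbladder against the mean of the other organs. Cyp4a12a and Slc26a3 lie far to the left in gallbladder, and the 3 Sox9 points lie close together.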

How the data were processed

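The deposited values are log2 signals of Affymetrix arrays made by the authors with RMA, per the submitters' processing notes (version not given). Of 35556 probe sets, 21789 carried 1 gene symbol, 1621 several and 12146 none in the platform annotation used here; several-symbol and unlisted probe sets were not tested. For 999 genes with several probe sets, the one with the highest mean was kept. limma 3.58.1 (R 4.3.3) fitted 1 mean per group over 14 arrays in 7 groups, with 7 residual degrees of freedom. In simulated data with the groups' unequal spread this model made false calls above its nominal share and missed most small differences, while array weights kept close to it; the weighted counts are given beside the main ones. With 2 arrays a group an exact permutation test cannot go below 0.333. The same-numbered samples of the 2 groups did not deviate together (correlation -0.0124). The members and lists were chosen with earlier results of these data known. Named genes were the 10 leading ones in each direction, the lower ones again among genes less expressed in liver than in gallbladder tissue, the 4 largest differences of each list, and a fixed set of markers. The leading ones were taken only from called genes whose organoid and tissue arrays do not overlap. Other list members were named for their role after their values were seen. Of 886 listed genes 810 were measured and the others were not analysed here. For the liver alternatives, a liver share per tissue array was subtracted on the linear scale, with the array's 1st percentile as the lowest value allowed. Rescaling the rest, centring on all probe sets and the NF-kB search were chosen after seeing the data. Promoter windows are RefSeq's.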

Additional observations from a re-analysis of the deposited data

Results flagged for a closer look

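The following genes changed in gallbladder culture by another amount than the mean of liver and small intestine culture, by limma's interaction test with adjusted p below 0.05, which 37.9% of all genes passed. Values are log2 differences of differences. Among the leading higher genes they were 4.07 for Cxcl5, 4.19 for Cdh17, 4.87 for Reg3b, 3.16 for Reg3g, 6.01 for Chil1, 2.40 for Sprr1a, 6.74 for Slc5a8, 3.42 for Anxa8, 2.05 for Ltf and 2.62 for Tnip3. These are differences from the mean of both organs. In liver culture Ltf rose by 6.55 and Sprr1a by 5.75, more than the 5.46 and 5.63 of gallbladder, Cxcl5 by 5.66, Cdh17 by 5.196, Tnip3 by 4.97, Reg3g by 4.90, Anxa8 by 4.08 and Reg3b by 3.49. In small intestine these 8 genes lay between -0.72 and 0.69, and gallbladder against liver alone was not tested. Without organoid array 1 or 2 the adjusted p was 0.0932 and 0.0851 for Reg3g and 0.0811 and 0.0793 for Ltf.

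Liver-expressed genes gave -3.75 for Serpina1c, -3.35 for Alb, -3.79 for Cyp3a11, -3.48 for Cyp2e1, -2.80 for Ahsg and -2.44 for Fgg. In that order they were at -8.78, -8.15, -7.42, -8.05, -8.13 and -8.60 in liver culture. Gallbladder culture had -8.71, -7.83, -7.66, -7.37, -7.37 and -7.25, and small intestine lay between -1.14 and 0.26. These interactions therefore do not set gallbladder apart from liver. Cyp4a12a and Cyp4a12b, whose cell of origin was not tested, gave -8.77 and -7.53. Genes of epithelium and transport gave -6.83 for Slc26a3, -5.28 for Muc3, -2.87 for Car4, -2.65 for Slc9a3, -1.14 for Gpbar1 and 1.08 for Cftr. Car4 and Muc3 were also lower in small intestine culture, at -5.98 and -5.04, beside -5.96 and -7.20 in gallbladder. Epithelial and progenitor markers gave -1.47 for Epcam, -3.15 for Krt19, -1.32 for Krt7, -2.89 for Muc1, -1.57 for Sox17, -0.76 for Axin2, -2.22 for Prom1 and -1.85 for Cd44.

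Muscle, matrix and leukocyte genes gave -2.77 for Acta2, -2.81 for Des, -3.51 for Actg2, -3.26 for Myh11, -3.98 for Cckar, -0.92 for Dcn, -3.46 for Postn, -1.08 for Col1a1 and 1.01 for Ptprc. In small intestine culture Des, Actg2 and Myh11 were at -5.12, -4.59 and -4.57, beside -6.10, -6.08 and -5.95 in gallbladder. The adjusted p of Ptprc was 0.116 without organoid array 1 or 2 and 0.134 without tissue array 1.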

How the results depend on the processing

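The counts of 6514 higher and 3040 lower genes became 926 and 11892 with centring on pan-epithelial genes, 504 and 703 against a minimum difference of 1 log2 unit, and 11150 and 796 with a liver share subtracted. That subtraction moved the median over all genes by 1.17. With the rest rescaled the shift was 0.30 and the counts were 6313 and 2931. Without the dimmest 40% of genes 2015 were lower, with fewer genes tested. Leaving out single arrays gave 4515 to 6001 higher and 2098 to 3293 lower. With the replicate number as a block, 6486 were higher and 3028 lower; the numbers did not pair the samples. Quantile normalisation gave 5880 and 3380, array weights 5068 and 2684.

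With pan-epithelial centring the sign turned for Ano1 (-0.71), Atoh1 (-0.14), Axin2 (-0.29), Ccnd1 (-0.60), Clu (-0.72), Ermap (-0.40), Il6 (-0.63) and Krt19 (-0.75), and for the difference from the other organs of Dcn (0.22), Axin2 (0.37) and Col1a1 (0.057). With the liver share subtracted it turned for Alas2 (2.00), Aqp8 (0.85), Bambi (0.77), Bmp2 (0.90), C1qb (0.12), Cd52 (1.33), Cxcl12 (2.64), Dll4 (0.16), Gbp3 (0.89), Hgf (0.46), Hp (2.69), Il17rb (1.71), Lyz2 (0.19), Nnmt (3.27), Nr0b2 (0.32), Nr1h4 (1.58), Nr1i2 (0.016), Nr1i3 (0.58), Ptprc (0.57), Qprt (3.31), Scd1 (2.99), Trf (0.79) and Usp18 (2.43), and for the organ difference of Fgg (3.07) and Axin2 (0.31). With the rest rescaled it turned for Alas2 (0.94), Aqp8 (0.73), Bmp2 (0.016), C1qb (0.0046), Cd52 (1.21), Cxcl12 (2.64), Gbp3 (0.77), Hgf (0.34), Hp (2.69), Il17rb (1.59), Krt19 (-1.04), Lyz2 (0.073), Nnmt (3.27), Nr0b2 (0.20), Nr1h4 (1.46), Prom1 (-0.21), Ptprc (0.45), Qprt (3.31) and Scd1 (2.87), and for the organ difference of Fgg (2.95). Cxcl12, Hp, Nnmt and Qprt had the same values with and without rescaling, because tissue was set to the lowest value allowed. Such a turned sign does not show higher expression in organoids. The cause of the other turns was not tested. The number of arrays limits the precision, and genes near the lower end of the signal range have compressed differences.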
